A study of Mus musculus with 8 samples.

Results

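The 10 genes described here are the uncoupling proteins Ucp1, Ucp2 and Ucp3 and 7 genes used as markers of beige and brown adipocytes or of their activation: Dio2, Otop1, Tmem26, Tbx1, Cited1, Hspb7 and P2rx5. They were taken by name, through the RefSeq accession of each row of the deposited files, from the 23360 genes measured in inguinal white adipose tissue, a fat pad that lies under the skin of the groin. All 10 passed the filter on low values, which 14591 genes passed. The labels describe 4 control libraries, from mice with floxed Lsd1 alleles, and 4 knockout libraries, in which the floxed alleles were deleted by Adipoq-Cre, and all mice were 6 weeks old. Adipoq-Cre is driven by the promoter of the adiponectin gene and acts in adipocytes, so the other cells of the pad keep Lsd1. There was no group with the Cre transgene and intact Lsd1, so the transgene itself and the loss of Lsd1 cannot be told apart. The labels do not state that each library came from a separate mouse, so p-values rest on a spread between samples that may be technical.

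Ucp1 is a carrier of the inner mitochondrial membrane that lets protons flow back into the matrix without making ATP, and brown adipocytes use it to make heat. Beige adipocytes are cells of white depots, the inguinal pad above all, that can turn on Ucp1 and other brown adipocyte genes when noradrenaline acts through beta-adrenergic receptors and cyclic AMP. Dio2 belongs to the same response, since it makes active thyroid hormone inside the cell, while Ucp2 and Ucp3 are close relatives of Ucp1 that are made outside brown fat too and are not known to drive thermogenesis. Lsd1, encoded by Kdm1a, removes methyl groups from histone H3 in complexes that repress or activate genes.

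The promoters of the 5 members on which the results turn are shown here, because cyclic AMP acts on genes through the element TGACGTCA and its shorter core TGACG. Each is the stretch of 250 bases before the transcription start, read 5′ to 3′ on the gene's own strand, from RefSeq's GRCm38.p6 annotation. Capitals mark TGACG on either strand (CGTCA on the other strand), and in Dio2 the whole of TGACGTCA, which holds the core on both strands.
Ucp1 (chr8:83290098-83290347, plus strand): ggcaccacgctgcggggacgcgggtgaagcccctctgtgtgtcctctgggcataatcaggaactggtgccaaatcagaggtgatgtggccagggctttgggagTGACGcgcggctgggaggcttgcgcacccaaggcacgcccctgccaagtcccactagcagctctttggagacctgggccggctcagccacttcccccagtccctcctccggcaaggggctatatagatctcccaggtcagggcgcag
Ucp2 (chr7:100493108-100493357, plus strand): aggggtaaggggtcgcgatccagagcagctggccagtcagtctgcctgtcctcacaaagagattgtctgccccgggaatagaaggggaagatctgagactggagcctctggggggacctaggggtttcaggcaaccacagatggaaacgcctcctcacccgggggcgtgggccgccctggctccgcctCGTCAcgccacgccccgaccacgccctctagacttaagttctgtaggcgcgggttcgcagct
Ucp3 (chr7:100472741-100472990, plus strand): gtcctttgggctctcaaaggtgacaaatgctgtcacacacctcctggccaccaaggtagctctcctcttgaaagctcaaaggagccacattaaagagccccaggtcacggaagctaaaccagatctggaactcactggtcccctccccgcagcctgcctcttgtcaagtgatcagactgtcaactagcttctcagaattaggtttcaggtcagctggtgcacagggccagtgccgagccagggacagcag
Dio2 (chr12:90739039-90739288, minus strand): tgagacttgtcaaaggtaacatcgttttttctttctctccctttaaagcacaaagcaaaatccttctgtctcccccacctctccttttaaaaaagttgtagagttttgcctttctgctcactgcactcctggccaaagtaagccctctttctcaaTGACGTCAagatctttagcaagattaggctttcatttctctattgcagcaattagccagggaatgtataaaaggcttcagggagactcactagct
Otop1 (chr5:38277154-38277403, plus strand): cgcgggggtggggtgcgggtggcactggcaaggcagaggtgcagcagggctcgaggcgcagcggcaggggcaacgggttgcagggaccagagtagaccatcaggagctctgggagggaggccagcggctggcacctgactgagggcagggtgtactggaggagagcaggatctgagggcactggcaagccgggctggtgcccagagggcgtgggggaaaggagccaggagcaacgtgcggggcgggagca

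The Dio2 promoter was the only one of these 5 with the full element TGACGTCA, which began 95 bases before the start and which 1.55% of 32851 promoter windows of the same length held. The core TGACG was present in Ucp1, 147 bases before the start, in Ucp2, 62 bases before it, and in Dio2, 95 and 92 bases before it as parts of the full element. Of all windows 17.8% held this core. Otop1 and Ucp3 held neither. The nuclear receptor core AGGTCA, read on both strands and held by 14.02% of windows, was found in Ucp1 14 bases before the start and in Ucp3 149 and 44 bases before it. Dio2 also had a TATA box core, TATAAA, 30 bases before its start, as 12.4% of windows had one anywhere on either strand. CpG dinucleotides numbered 16 in Ucp2, 13 in Otop1, 12 in Ucp1, 3 in Ucp3 and 2 in Dio2, against a median of 6 over all windows. Of the other members, Tbx1 and Cited1 each held the core TGACG in 1 of their promoter windows, 14 and 33 bases before the start. A promoter entry was found for 9 of the 10 members, all but P2rx5. The Ucp2 window ends slightly inside the gene span given below, because it belongs to another annotated start. These matches describe letters in a window, and no binding or chromatin was measured here.

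Values below are scaled read counts as deposited, each library having a total of 13999923 to 14369969, and the values of a genotype are given in the order of its replicates 1 to 4. Behind these values lay 25671837 to 32442724 recovered reads per library. A log2 fold change is the knockout mean less the control mean of log2(value + 1), a scale that understates the change of low genes, and a gene was called at a limma Benjamini-Hochberg adjusted p under 0.05 over all genes tested. Kdm1a was at 685 to 799 in controls and 547 to 581 in knockouts (log2 fold change -0.36 with SE 0.075, limma adjusted p = 0.0498), and its call was lost in 18 of 24 alternative analyses. Markers of skeletal muscle set 3 knockout libraries apart. The 14 measured of 15 markers, none at 0 in any library and led by Acta1, Myh4 and Atp2a1, held 0.0634 to 0.280% of a control library, 1.46, 1.39 and 0.853% of knockout replicates 1, 2 and 4, and 0.0949% of knockout replicate 3. The summed values were 9053 to 39604 in controls and 13614 to 204854 in knockouts. The 10 general adipocyte markers summed to 320632 to 420139 in controls and 255051 to 294363 in knockouts, and all were present in every library. In bulk tissue fewer cells of a type and less RNA per cell cannot be told apart.

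Ucp2 was the only member called, and Otop1 was the other member whose genotypes did not overlap. Of the 10 members 1 rose and 0 fell by limma (Ucp3 alone was lower at an unadjusted p under 0.05), where 1.28% of all genes tested were called higher and 0.356% lower, 1.64% in all. At an unadjusted p under 0.05 there were 3, Ucp2, Ucp3 and Otop1, as for 14.5% of all genes (8.84% higher and 5.68% lower). On recovered reads edgeR called 1 member and 1.49% of all genes (1.21% higher, 0.288% lower), and DESeq2 called 1 member and 5.32% (3.37% higher, 1.95% lower). For 2 of 10 members every knockout library lay above every control, as for 5.06% of all genes tested, and for none did every knockout lie below, as for 3.58% (8.65% in either direction). The members' median log2 fold change was 0.25, beside 0.02 for all genes, with 6 positive and 4 negative values.

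**Figure D1:**
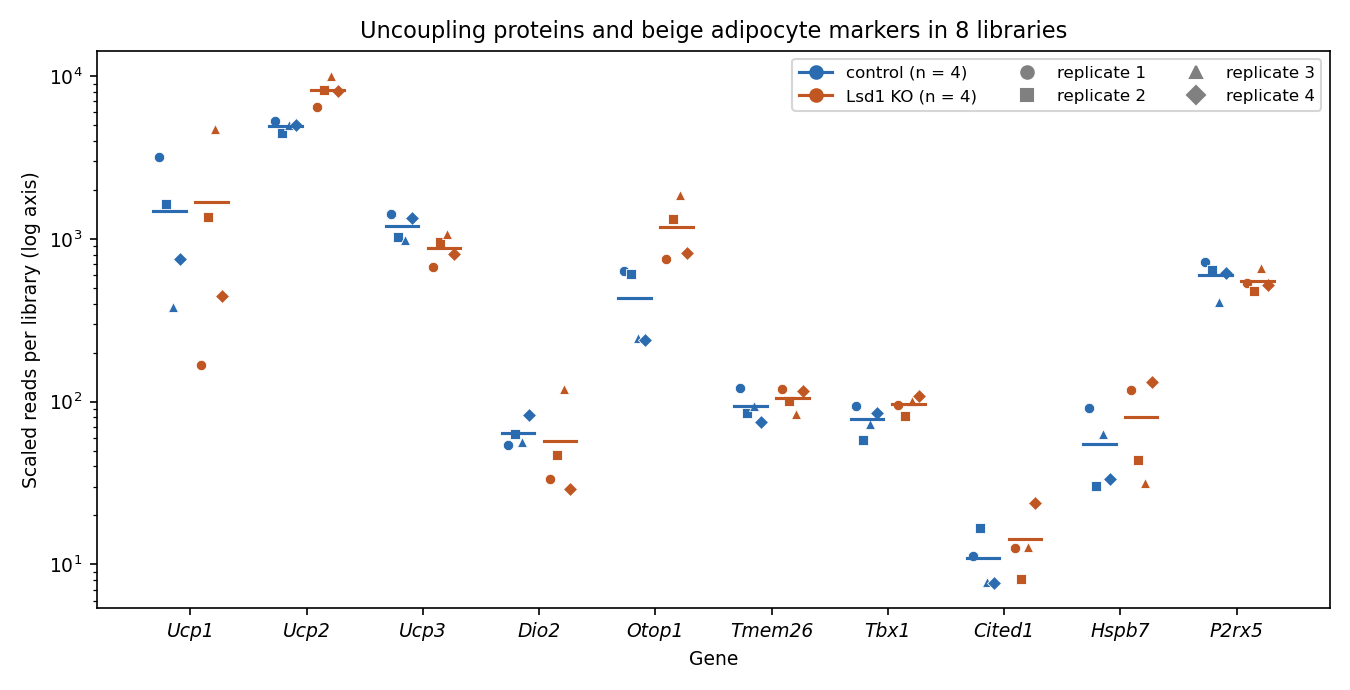
Scaled reads of the 10 members (vertical, log axis) in the 4 control and 4 knockout libraries, with a symbol for each replicate and a line at each group mean. The knockout points of Ucp2 and Otop1 all lie above their control points, and Ucp1 spreads from 167 to 4732 within the knockouts.

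Compared per length of transcript, the uncoupling proteins were the most abundant of the 10 genes in control fat. Control means per kilobase were 1244 ± 90.1 scaled reads for Ucp2 (SD, n = 4), 912 ± 763 for Ucp1 and 488 ± 89.5 for Ucp3. P2rx5 followed at 249 ± 55.5 and Otop1 at 138 ± 70.3. The remaining genes lay well below, with Tbx1 at 31.0, Hspb7 at 19.8, Tmem26 at 18.7, Dio2 at 11.0 and Cited1 at 9.98. Among neighbours in this order the control ranges did not overlap between Ucp3 and P2rx5, between Otop1 and Tbx1 and between Tmem26 and Dio2. The ranges of the other neighbours overlapped, but each library holds both genes of a pair. Within single libraries P2rx5 lay above Otop1 in each control (300, 269, 171 and 259 against 203, 195, 78.4 and 76.7). Tbx1 likewise lay above Hspb7 in each control, and the remaining overlapping neighbours changed order between controls. In the knockouts Ucp2 was at 2059 ± 362 per kilobase and Ucp1 at 1026 ± 1283, with a range of Ucp1 from 102 to 2893. The mean of Ucp1 rested on knockout replicate 3 and was 404 per kilobase without it. In knockout replicate 1 Ucp1 lay below Ucp3 (274), Otop1 (241) and P2rx5 (224). Otop1, at 379.7 ± 164 per kilobase, stood above Ucp3 (358 ± 71.5) and P2rx5 (230.4 ± 33.9) by its mean. The ranges of these 3 genes overlapped, and in the knockouts P2rx5 and Tbx1 were the only neighbours whose ranges did not. Within single libraries Otop1 lay above P2rx5 in each knockout (241, 424, 592 and 261 against 224, 200, 279 and 218) and below it in each control. Ucp3 (274, 390, 439 and 332) also lay above P2rx5 in each knockout, and its order against Otop1 varied. Transcript lengths came from the GENCODE annotation, and the place of Ucp2 depends on the transcript model, here 3988 bases long.

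**Figure D2:**
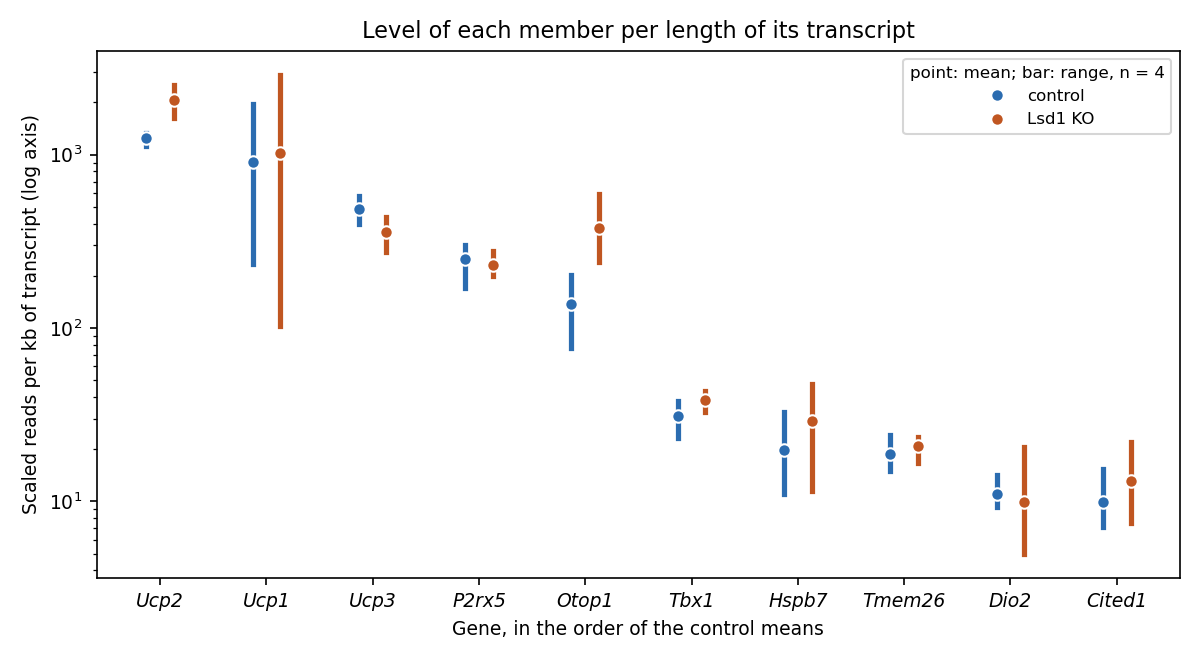
Scaled reads per kilobase of transcript (vertical, log axis) for the 10 members in the order of their control means, where points are means and bars the range of 4 libraries. The 3 uncoupling proteins lead in controls, and Otop1 goes from 138 to 379.7 per kilobase between the group means, while Ucp1 has the widest bar in both genotypes.

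Ucp1 (NM_009463, chr8:83290348-83298456, GRCm38.p6) varied far more between libraries than between genotypes. Its values were 3189, 1639, 384 and 756 in the 4 controls and 167, 1370, 4732 and 447 in the 4 knockouts, so that the highest and the lowest of all 8 libraries were both knockouts. Within a genotype the range was 8.31-fold in controls and 28.3-fold in knockouts. The within-group SD of 1.74 on the log2 scale was larger than that of 99.9% of all genes tested, and the median gene had an SD of 0.189. With this spread the interval of the genotype difference ran from -2.57 to 1.75 on the log2 scale (log2 fold change -0.41 with SE 0.97, limma adjusted p = 0.886, exact two-sided permutation p = 0.743). That interval covers knockout to control ratios from 0.168 to 3.37. The means ran the other way from this log2 fold change, 1492 ± 1248 in controls and 1679 ± 2099 in knockouts (SD, n = 4 each), a ratio of 1.13. Leaving out knockout replicate 3 gave a log2 fold change of -1.24 and leaving out knockout replicate 1 gave 0.36, the extremes among the fits with 1 library left out. The value was -0.92 without control replicate 3 and 0.098 without control replicate 1. Limma adjusted p was 0.543 to 0.981 over the fits with 1 library left out. On recovered reads the adjusted p was 0.959 with edgeR and 0.969 with DESeq2.

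Ucp2 (NM_011671, chr7:100493337-100499629) rose in the knockout pad. It was at 5325, 4465, 5032 and 5027 in the 4 controls and at 6493, 8193, 10029 and 8135 in the 4 knockouts. The controls lay close together, and the lowest knockout stood above the highest control. The means were 4962 ± 359 and 8212 ± 1445 (SD, n = 4 each). The fitted fold change was 1.64 with a 95% interval from 1.35 to 1.99 (log2 fold change 0.71 with SE 0.13, limma adjusted p = 0.0243). An exact permutation test (two-sided) gave p = 0.0286, the lowest value possible with 4 against 4.

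The direction of Ucp2 held in all 24 alternative analyses, with log2 fold changes from 0.61 to 1.02, but the call did not. Limma adjusted p was 0.0536, 0.0691, 0.0571 and 0.0737 without control replicate 1, 2, 3 or 4, 0.0911 without knockout replicate 2 and 0.0895 without knockout replicate 4, but 0.00777 and 0.0175 without knockout replicates 1 and 3, within a range over all alternatives from 2.91e-05 (DESeq2) to 0.217. Against knockout replicate 3 alone, the knockout library without raised muscle markers, the log2 fold change was 1.02 (adjusted p = 0.0604), without control replicates 1 and 2 together it was 0.69 (0.162), and with the muscle marker score as a covariate it was 0.91 (0.0141). Ucp2 is made by many cell types, macrophages and lymphocytes among them. Macrophage markers, led by Lyz2, C1qa and C1qb, summed to 23003 to 27854 in controls and 26835 to 33628 in knockouts (8 of 10 markers measured, none at 0). B cell markers, Cd22 and Cd79b among them, summed to 7043 to 15684 and 11261 to 15575 (10 of 10, none at 0). With the macrophage score as a covariate the log2 fold change of Ucp2 was 0.79 (limma adjusted p = 0.114) and with the B cell score 0.64 (0.0777). With the adipocyte score it was 0.71 (0.217). That score did not overlap between genotypes, at 14.25 to 14.65 in controls and 13.97 to 14.20 in knockouts. A fit with it therefore separates score and genotype poorly. The exons of Ucp2 share 305 bases, 7.65% of the transcript, with Dnajb13 on the other strand, which was itself at 20.1 to 33.2 in the 8 libraries.

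Ucp3 (NM_009464, chr7:100472991-100486432), known best from skeletal muscle and brown fat, lies just upstream of Ucp2 on the same strand, with 6904 bases between the genes. It did not pass, and its log2 fold change had the opposite sign to that of its neighbour. Its values were 1416, 1035, 981 and 1349 in the 4 controls and 670, 954, 1074 and 812 in the 4 knockouts. Knockout replicate 3 lay above control replicates 2 and 3, so the groups overlapped. The means of 1195 ± 219 and 877 ± 175 gave a log2 fold change of -0.45 (SE 0.17, 95% interval -0.82 to -0.08, limma adjusted p = 0.256, exact two-sided permutation p = 0.114, n = 4 each). The sign was negative in all 24 alternatives. It shrank to -0.18 with the muscle score as a covariate and to -0.14 against knockout replicate 3 alone.

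Dio2 (NM_010050, chr12:90724552-90739038), the deiodinase that turns thyroxine into active thyroid hormone, spread widely among the knockouts. Its values were 54.2, 63.4, 56.3 and 83.0 in the 4 controls and 33.3, 47.4, 119.87 and 29.0 in the 4 knockouts. Knockout replicate 3 was above every control and the other 3 knockouts were below every control. The log2 fold change was -0.38 (SE 0.39, limma adjusted p = 0.709, exact two-sided permutation p = 0.457), and with the muscle score as a covariate it was 0.46 (limma adjusted p = 0.382). Over all alternatives the adjusted p by limma, edgeR or DESeq2 was 0.120 to 0.996. The muscle marker share of knockout replicates 1, 2 and 4, given above, was 0.853 to 1.46%, against at most 0.280% in the other libraries. Whether muscle content bears on Dio2 was not tested. Dio2 shares 100 exon bases with the antisense transcript Gm26512.

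Genes of thyroid hormone transport and action were not called in either direction. Of 13 listed genes 11 were tested, and by limma 0 passed, against 1.64% of all genes. Their median log2 fold change was -0.07. At an unadjusted limma p under 0.05 the list held 4, Hr, Rxra, Usp33 and Usp20, against 14.5% of all genes. edgeR and DESeq2 called 0 of the 11, against 1.49 and 5.32% of all genes. Dio1 and Dio3, the other deiodinases, were at or under 5.31 scaled reads in every library. Hr, a corepressor whose gene responds to thyroid hormone, was at 680 ± 237 in controls and 1077 ± 208 in knockouts (0.70, limma adjusted p = 0.193). Rxra, the partner of the thyroid hormone receptors, had a log2 fold change of -0.22 (adjusted p = 0.340). Usp20, a deubiquitinase that acts on the Dio2 protein, was at 375 to 444 in controls and 346 to 358 in knockouts (-0.21, adjusted p = 0.277), without overlap.

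Otop1 (NM_172709, chr5:38277404-38304217), which encodes the proton channel otopetrin 1, was higher in every knockout library than in any control but did not pass the threshold. It was at 638, 613, 246 and 241 in the 4 controls and at 758, 1333, 1860 and 819 in the 4 knockouts. The controls fell into a higher pair, replicates 1 and 2, and a lower pair, replicates 3 and 4. The means were 435 ± 221 and 1193 ± 515 (SD, n = 4 each), a fitted fold change of 2.85 with a 95% interval from 1.55 to 5.25 (log2 fold change 1.51 with SE 0.39, limma adjusted p = 0.108). The exact permutation test (two-sided) gave p = 0.0286. The sign was positive in all 24 alternatives, from 1.26 to 2.25, and limma, edgeR and DESeq2 gave adjusted p of 0.0375 to 0.276. The lowest of these came without control replicates 1 and 2 together (log2 fold change 2.19), whose sample numbers 518 and 517 lie apart from the 356 to 361 of the other libraries. Against knockout replicate 3 alone the value was 2.25 (adjusted p = 0.163), and with the muscle score as a covariate 1.79 (0.109).

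**Figure D3:**
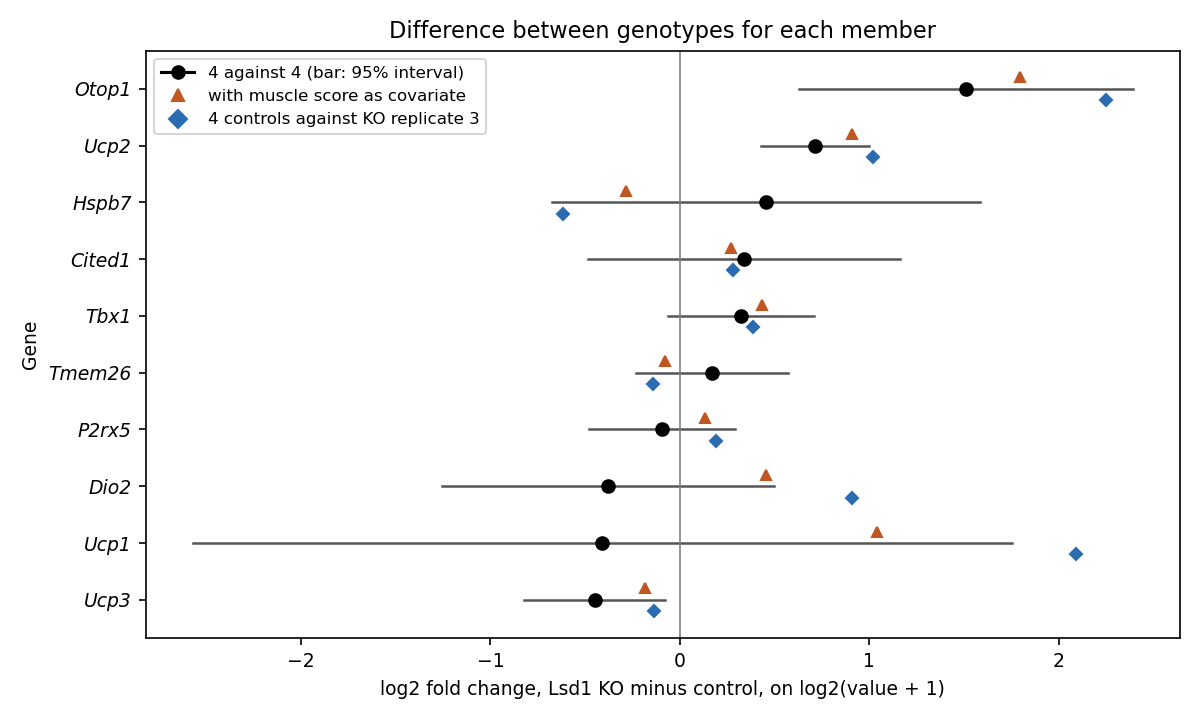
Log2 fold change of each member, knockout minus control (horizontal), with its 95% interval from 4 against 4 libraries as a bar, beside the value with the muscle marker score as a covariate (triangles) and against knockout replicate 3 alone (diamonds). All 3 values are positive for Otop1, Ucp2, Cited1 and Tbx1 and negative for Ucp3, and they differ in sign for the other 5 genes.

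The remaining beige markers did not pass. Tbx1 (NM_011532, chr16:18580979-18590671), a T-box transcription factor, was at 94.7, 58.5, 72.5 and 85.6 in the 4 controls and at 95.4, 82.2, 100.4 and 108 in the 4 knockouts. Of the 4 knockouts 3 lay above all controls and replicate 2 within their range (log2 fold change 0.32 with SE 0.17, limma adjusted p = 0.439, exact two-sided permutation p = 0.114). Its sign was positive in all 24 alternatives. Tmem26 (NM_177794, chr10:68723746-68782655), a membrane protein used as a surface marker of beige cells, was at 122, 85.5, 94.0 and 75.3 in controls and 119, 101, 84.0 and 117 in knockouts. These ranges nearly coincided, with a log2 fold change of 0.17 and a 95% interval from -0.23 to 0.57 (limma adjusted p = 0.715).

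Cited1 (NM_007709, chrX:102247378-102252181), a transcriptional coregulator, was the least abundant member by its values and rested on 15 to 48 recovered reads per library. It was at 11.2, 16.7, 7.83 and 7.74 in the 4 controls and at 12.5, 8.16, 12.8 and 24.0 in the 4 knockouts. The groups overlapped, and the log2 fold change did not pass (0.34, 95% interval -0.48 to 1.16, limma adjusted p = 0.722). Its within-group SD of 0.54 on the log2 scale was larger than that of 93.7% of all genes tested. P2rx5 (NM_033321, chr11:73155389-73172687), an ATP-gated cation channel used as a surface marker of brown and beige adipocytes, was at 718, 644, 408 and 619 in controls and 537, 480, 668 and 522 in knockouts. The knockouts all lay within the range of the controls, and the interval of the log2 difference ran from -0.48 to 0.29 (limma adjusted p = 0.845).

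Hspb7 (NM_013868, chr4:141420779-141425310), a small heat shock protein best known from heart and skeletal muscle, followed single libraries. Its values were 91.3, 30.5, 63.7 and 33.5 in the 4 controls and 117, 43.5, 31.9 and 131 in the 4 knockouts. Knockout replicates 1 and 4 stood above all controls, and replicates 2 and 3 lay within their range (log2 fold change 0.46 with SE 0.50, limma adjusted p = 0.726). With the muscle score as a covariate the log2 fold change was -0.28, and against knockout replicate 3 alone it was -0.62. The summed muscle share was 1.46% in knockout replicate 1, 1.39% in replicate 2 and 0.853% in replicate 4. Most single muscle markers, Acta1, Myh4 and Atp2a1 among them, also had replicate 2 above replicate 4. Of the 14 measured, only Myh1, Mb and Tcap had replicate 4 above replicate 2. In the 4 knockouts Acta1 was at 45249, 38179, 2986 and 27678 and Myh4 at 34498, 32245, 1211 and 15501. Myh1 was at 1927, 745, 645 and 2291 and Mb at 580, 332, 181 and 1585. Whether muscle content sets Hspb7 was not tested.

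**Figure D4:**
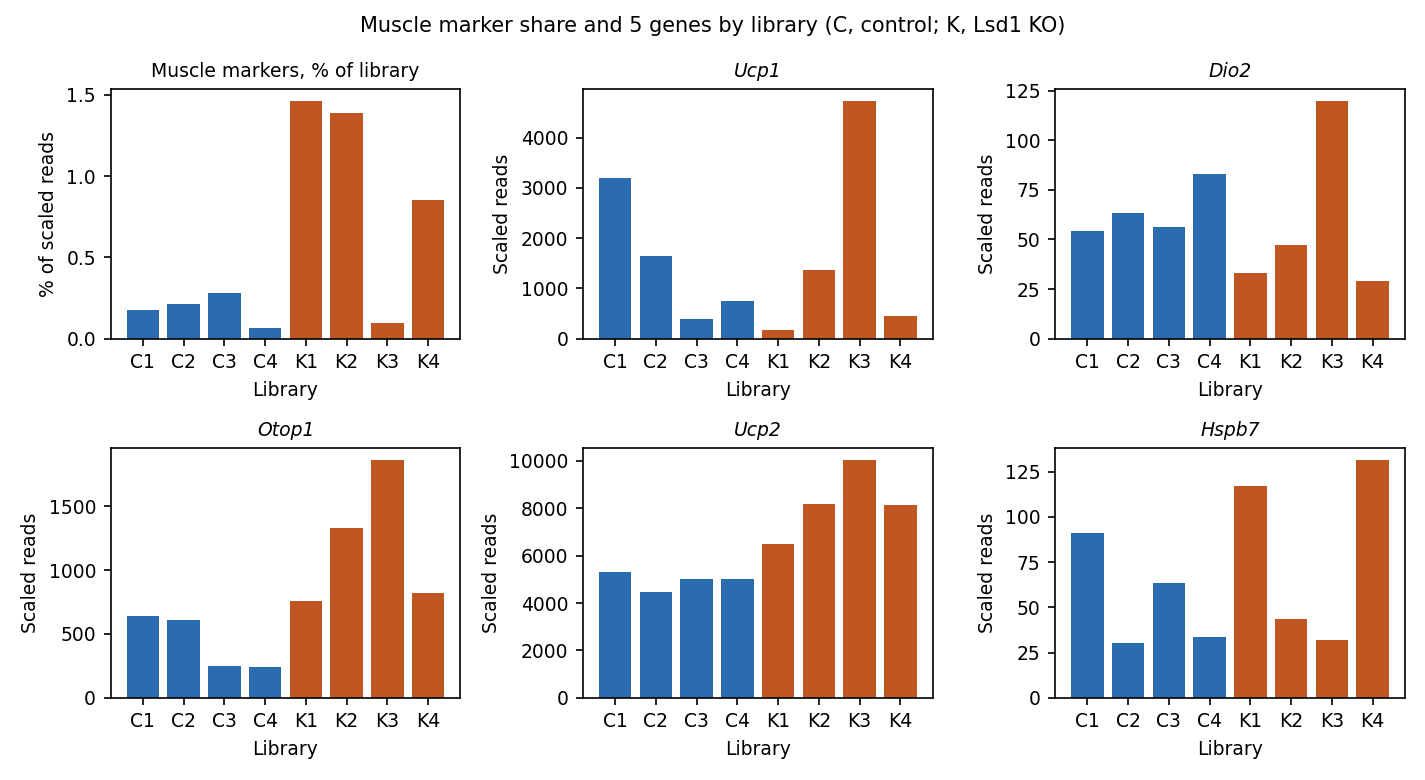
Share of muscle markers in each library (first panel, percent of scaled reads) and scaled reads of 5 members (other panels), for control libraries C1 to C4 and knockout libraries K1 to K4, 1 bar a library. K3 has 0.0949% muscle reads and the highest knockout value of Ucp1, Dio2, Otop1 and Ucp2, and K1 and K4 have the highest Hspb7.

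Several members ranked the knockout libraries alike. Ucp1, Ucp2, Ucp3 and Otop1 all had their knockout values in the same order, with replicate 3 highest, then 2, 4 and 1, an order that 10.7% of all genes tested shared. Dio2 had replicate 3 highest and replicate 2 next. Knockout replicate 3 gave the highest knockout value for 6 of 10 members and for 17 of 27 tested thermogenic and brown adipocyte genes, against 32.1% of all genes. It was also the knockout library with the lowest share of muscle markers. Among controls, replicate 1 was the highest for 8 of 10 members and 20.8% of all genes. The thermogenic genes differed in this, with control replicate 2 the highest for 17 of 27. These orders were read after the values were seen, and the part of muscle content in them was not tested.

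Across the 8 libraries the genes with profiles most like each member's were ranked by Pearson's r on the log2 scale, as a description over libraries that differ in genotype and muscle content alike. Ucp1 was followed most closely by Emc2 (r = 0.990, Spearman's rho = 1), Mrpl51 (0.980, rho = 1) and Rmdn3 (0.979, rho = 0.976). Ucp2 was followed by Fam3c (0.992, rho = 0.881), Fbxo6 (0.991, rho = 0.976) and Trim80 (0.986, rho = 0.976), whose mean went from 9.895 scaled reads in controls to 91.4 in knockouts. Ucp3 had its closest profiles in Pcx (0.964, rho = 1), which encodes pyruvate carboxylase, the prostaglandin receptor gene Ptger3 (0.964, rho = 1) and Lrrc27 (0.952). For Dio2 they were Ndufa4l2 (0.979), Vps25 (0.963) and 3110040N11Rik (0.960), and for Otop1 they were Nol3 (0.982), Tmem37 (0.971) and Kng2 (0.963). Tbx1 was nearest to Tmie (0.984), Def8 (0.979) and Hspa2 (0.961), and Hspb7 to F13a1 (0.977), Mybpc1 (0.972), which encodes a myosin-binding protein of skeletal muscle, and Hal (0.972). Tmem26 was nearest to Ccdc17 (0.948), Myh1 (0.942) and Dph2 (0.942), Cited1 to Cma1 (0.949), Borcs6 (0.939) and Rcn3 (0.939), and P2rx5 to Ddhd2 (0.939), Msrb1 (0.937) and Ppp1r3b (0.933). The best of so many genes is high by selection alone, and no test was made.

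The wider set of thermogenic and brown adipocyte genes was split in its direction. The few tested genes that were called or did not overlap were lower. Of 29 listed genes 27 were tested, 15 above and 12 below 0 on the log2 scale (median 0.01), and by limma 0 rose and 1 fell, against 1.28 and 0.356% of all genes and their median of 0.02. At an unadjusted limma p under 0.05 there were 1 higher and 6 lower, against 8.84 and 5.68% of all genes. edgeR called 0 higher and 1 lower, against 1.21 and 0.288% of all genes, and DESeq2 called 0 higher and 5 lower, against 3.37 and 1.95%. In 3 of the 27 every knockout lay below every control, against 3.58% of all genes, and in 0 every knockout lay above, against 5.06%. The gene that fell was Clstn3, a calsyntenin, from 588 ± 108 to 209 ± 62.6 (log2 fold change -1.52 with SE 0.22, limma adjusted p = 0.00929, n = 4 each). Its sign was negative in all 24 alternatives and its call was lost in 5, among them the muscle score as a covariate (-1.27, adjusted p = 0.0535) and the exclusion of control replicates 1 and 2 together (-1.39, 0.107), within a range from 1.42e-08 to 0.129. Slc27a2, a fatty acid transporter and acyl-CoA synthetase, was at 40.6 to 504 in controls and 18.0 to 24.5 in knockouts, without overlap (-2.41, adjusted p = 0.108). Ppara, a nuclear receptor of fatty acid oxidation, had a log2 fold change of -1.09 (adjusted p = 0.125). Fgf21, a hormone that brown fat can secrete, was at 7.13 ± 5.05 and 19.96 ± 20.9, where knockout replicate 3 alone reached 49.98 (0.95, adjusted p = 0.650). Bmp8b, below the filter and so not tested, was higher without overlap, at 0 to 1.96 in controls and 4.36 to 10.5 in knockouts. Zic1, a marker of classical brown fat, was at most 3.27.

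A further list held 10 markers of beige adipocytes or of the adipocyte surface. Of these 0 rose and 1 fell by limma, against 1.28 and 0.356% of all genes. The list's median log2 fold change was 0.12. At an unadjusted limma p under 0.05 there were 1 higher and 2 lower, against 8.84 and 5.68% of all genes. edgeR called 0 (1.49% of all genes), and DESeq2 called 0 higher and 2 lower (3.37 and 1.95% of all genes). The genotypes did not overlap for 1 gene that was higher and 2 that were lower, against 5.06 and 3.58% of all genes. Slc27a1, a long-chain fatty acid transporter, fell from 10293 ± 3690 to 4186 ± 1066 (-1.26 with SE 0.26, limma adjusted p = 0.0495, n = 4 each). That call was lost in 19 of 24 alternatives, with adjusted p from 2.41e-05 to 0.332 over all 24, and without any 1 library except control replicate 3 (0.0513 to 0.161). Without control replicates 1 and 2 together its log2 fold change was -0.84 (0.272). Car4, a membrane-bound carbonic anhydrase, was at 572 to 799 in controls and 474 to 494 in knockouts (-0.48, adjusted p = 0.0759), without overlap. Klhl13 (0.39, adjusted p = 0.240) and Ear2 (0.35, adjusted p = 0.551) did not pass either.

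Of 12 genes that carry the beta-adrenergic signal to cyclic AMP and protein kinase A, 0 passed by limma, against 1.64% of all genes. Their median log2 fold change was -0.05. At an unadjusted limma p under 0.05 there were 3, against 14.5% of all genes. edgeR called 0, against 1.49% of all genes, and DESeq2 called 2 as lower, Adcy6 and Adrb3, against 1.95% of all genes. In 3 of the 12, Adrb3, Adcy6 and Atf2, every knockout lay below every control, against 3.58% of all genes. Adrb3, the adipocyte beta-adrenergic receptor, was at 6543 to 8507 in controls and 6294, 4326, 2534 and 5802 in the 4 knockouts. Knockout replicate 3, the library with the highest Ucp1, had the lowest Adrb3 (-0.74, limma adjusted p = 0.209). Adcy6, an adenylyl cyclase, had a log2 fold change of -0.33 (adjusted p = 0.112), and Atf2, a transcription factor that binds the cyclic AMP element, of -0.16 (adjusted p = 0.376).

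Among 5 mitochondrial carriers of the same family as the uncoupling proteins, 1 rose and 0 fell by limma, edgeR and DESeq2 alike. Of all genes these tools called 1.28, 1.21 and 3.37% higher and 0.356, 0.288 and 1.95% lower. The median log2 fold change of the 5 was 0.02. At an unadjusted limma p under 0.05 there were 1 higher and 0 lower, against 8.84 and 5.68% of all genes. Slc25a4, which exchanges ADP and ATP across the inner membrane, chiefly in heart and muscle, went from 3932 ± 288 to 5431 ± 227 (log2 fold change 0.47 with SE 0.078, limma adjusted p = 0.0186, n = 4 each). Its call was lost in 9 of 24 alternatives, among them the muscle score as a covariate (0.39, adjusted p = 0.0753) and the fits that left out control replicate 1 (0.0538), control replicate 4 (0.0721), knockout replicate 2 (0.0841) and knockout replicate 4 (0.0784), within a range from 3.71e-05 to 0.230. Its paralogue Slc25a5 was at 3898 to 4605 in controls and 3149 to 4463 in knockouts (-0.24, adjusted p = 0.408). Slc25a14 (0.16, adjusted p = 0.767) and Slc25a30 (-0.14, adjusted p = 0.693) were not called.

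Of the general adipocyte markers 1 of 10, Cidec, fell by limma and by edgeR, against 0.356 and 0.288% of all genes. On the log2 scale 9 lay below 0 (median -0.22). DESeq2 called 3 as lower, Cidec, Lipe and Pnpla2, against 1.95% of all genes, and 3 were lower at an unadjusted limma p under 0.05, against 5.68%. In 4 of the 10 every knockout lay below every control, against 3.58% of all genes. The 3 most abundant were Fabp4 (-0.39, limma adjusted p = 0.437), Cd36 (-0.19, 0.529) and Pnpla2 (-0.50, 0.213). Of the muscle markers 0 of 14 passed by limma, 0 by edgeR and 6 by DESeq2. These tools called 1.28, 1.21 and 3.37% of all genes higher. At an unadjusted limma p under 0.05 there were 10, all higher, against 8.84% of all genes. All 14 were positive, with a median of 2.05. The 8 macrophage markers had a median of 0.25 and the 10 B cell markers of 0.31. In each, 0 were called by limma, edgeR and DESeq2, against 1.64, 1.49 and 5.32% of all genes. At an unadjusted limma p under 0.05 the macrophage and B cell markers held 3 and 0, against 14.5% of all genes. Epithelial markers were low, summing to 77.6 to 111 in controls and 100.4 to 567 in knockouts, and 7 of 12 were at 0 in at least 1 library. Krt5 had the highest mean over the 8 libraries through knockout replicates 1 and 2 alone (237 and 82.2), and was at 0 to 0.49 in the other 6. Cldn3 was at 20.01 to 32.8 in controls and 37.2 to 56.7 in knockouts, without overlap (0.70, limma adjusted p = 0.172), and Epcam was at 12.3 to 38.7 in all 8. Nerve and Schwann cell markers (6 of 6 measured, 5 tested) had a median of 0.03, with Mbp at 0.07, while S100b, which other cell types make too, rose from 95.2 ± 16.5 to 672 ± 209 (2.76, limma adjusted p = 0.000488).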

How the data were processed

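RNA of inguinal fat was sequenced in 4 control and 4 Lsd1 knockout libraries. Per the submitters' processing notes and design text, the authors aligned reads to mm10 with TopHat version 2, counted them with HOMER and used edgeR and DESeq. Not given in the sources used here are the annotation, the strandedness and the scaling. The deposited values were a signal: read counts multiplied by 1 factor per library. They were whole multiples of a step of 0.442 to 0.545 for 100% of values within a tolerance of 0.02, from which whole reads were recovered. Of low multiples 54.0 to 56.2% were even, so that a step may be 1 end of a read pair. The 1 row without an accession was left out.

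Accessions were matched to symbols by RefSeq (22523) and GENCODE M21 (128), and 721 kept their accession. Of 2 rows for 1 symbol, found 12 times, that with more reads was used. The members and gene lists were chosen with earlier results of these data known. Genes that reached 10 scaled reads in 4 or more libraries were tested with limma 3.58.1 (R 4.3.3) on log2(value + 1), with a mean-variance trend, genotype as the only term and Benjamini-Hochberg adjustment. Single genes also had an exact permutation test (two-sided) over the 70 ways to split the libraries, where p cannot go below 0.0286. The text names all members, Kdm1a, in each pathway list the genes that passed and the 3 largest changes that did not, the 3 highest markers of each cell type and the 3 closest profiles of each member. Other genes named, such as Bmp8b, Zic1, Usp33, Atf2, Cidec, Lipe, Dio1, Dio3 and Dnajb13, were chosen after their values were seen. Some items that the rule names are left out of the text. edgeR 4.0.16 on recovered reads called 218 genes and DESeq2 1.42.0 called 776. Other alternatives were pseudocounts of 0.5 and 5, no filter or a minimum of 50, TMM scaling, library totals, leaving out each library or control replicates 1 and 2 together, knockout replicate 3 alone, and marker scores as covariates. Fits on halved reads and with macrophage or adipocyte scores were chosen after seeing the data. No 2 libraries of a genotype agreed within sampling noise, with chi-square values of 25.6 to 136 per degree of freedom. Tables were made with Python 3.11.15 and pandas 2.3.3. No proteins were printed, as no protein sequences were used here.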

Additional observations from a re-analysis of the deposited data

How the results depend on the processing

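Of the 24 alternatives, 12 kept the count of called genes (239) within 1.5 times. It was 776 with DESeq2, 97 without control replicates 1 and 2 together, 149 with the epithelial score, 139 with the B cell score, 19 against knockout replicate 3 alone, 60 with the macrophage score and 57 with the adipocyte score as a covariate. Without 1 library it was 87 to 449, with 135 and 138 without control replicates 1 and 4, 101, 449 and 87 without knockout replicates 2, 3 and 4. The count of members called, 1, was 0 with the B cell, macrophage and adipocyte scores, and 0 to 1 without 1 library. Without control replicates 1 and 2 together it was 1, but the member called there was Otop1 (limma adjusted p = 0.0375) and not Ucp2 (0.162). The sign of Ucp2, Ucp3, Otop1 and Tbx1 held in all 24. That of Ucp1 turned positive with edgeR (0.15), DESeq2 (0.15) and halved reads (0.16), without control replicates 1 and 2 together (0.63), with the muscle (1.04), epithelial (0.49), macrophage (0.37) and adipocyte (0.58) scores and against knockout replicate 3 alone (2.09), and ranged from -1.24 to 0.36 without 1 library. Dio2 turned with the muscle (0.46), macrophage (0.31) and adipocyte (0.0090) scores and against knockout replicate 3 alone (0.91). In the same 4 settings Tmem26 was at -0.078, -0.16, -0.067 and -0.14 and Hspb7 at -0.28, -0.72, -0.33 and -0.62. Cited1 was at -0.13 with the macrophage score. It had no value at a minimum of 50. P2rx5 was at 0.12 without control replicates 1 and 2 together, 0.13, 0.018, 0.041 and 0.14 with the muscle, epithelial, B cell and adipocyte scores, 0.19 against knockout replicate 3 alone and -0.27 to 0.0037 without 1 library. Slc25a5 was at 0.068 against knockout replicate 3 alone. The cause of these changes was not tested. The fits that leave libraries out also rest on fewer libraries. In the fit against knockout replicate 3 alone, that library is assumed to vary like the controls. The adipocyte score, as given above, did not overlap between genotypes, so fits with it separate score and genotype poorly. No paired analysis was possible because the replicate numbers used here only name the libraries in accession order, and the labels tie none of them to a litter, batch or day. Cited1 rested on the fewest reads of the members, and whether depth or the spread between libraries sets its interval was not tested.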
